A study of Mus musculus with 221 samples.

Results

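The 10 genes described here encode subunits of the BAF chromatin remodelling complex that are exchanged when cortical progenitors become neurons, together with a pair of its core subunits. They were chosen by name, from what is known of the exchange, with earlier results of these data known. They are 10 of 23244 features measured in 221 single cells. The progenitor subunits are Actl6a, Phf10, Dpf2 and Ss18, the neuronal subunits are Actl6b, Dpf1, Dpf3 and Ss18l1, and the core pair is Smarcc1 and Smarcc2. A gene was counted as above the floor of a cell when its value exceeded the lowest value of that cell, since the values of every cell hold a shared minimum and no 0.

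Mice were C57BL/6J embryos at stage E18.5, near the end of gestation, and their medial neocortex was taken. The study's title concerns Hopx-dependent basal radial glia, neural stem cells that have left the ventricular surface. Each of 2 independent pools held the neocortices of 8 embryos, and pool 2 gave 99 of the cells and pool 1 the rest. No group was treated or mutant, so the comparisons are between classes of cells found in both pools, with n = 2 pools a class. Cells were captured on a microfluidic chip and their full-length cDNA was sequenced.

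BAF complexes use the energy of ATP to move nucleosomes. In cortical progenitors (the npBAF form) they carry the actin-related protein BAF53a, encoded by Actl6a, the PHD-finger proteins BAF45a (Phf10) and BAF45d (Dpf2), and SS18. In neurons (the nBAF form) these are replaced by BAF53b (Actl6b), BAF45b (Dpf1) or BAF45c (Dpf3), and CREST (Ss18l1). Work in the mouse has tied the loss of Actl6a to the microRNAs miR-9* and miR-124, which bind its 3′ UTR, and loss of Actl6b or CREST to defects of dendrites.

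The mature sequence of miR-9* (mmu-miR-9-3p in the RefSeq table, GRCm38.p6) and the matches to its seed are shown because Actl6a is the member whose microRNA control is best known. The capitals mark the seed (bases 2 to 8) and, in the 3′ UTRs, the match AGCTTTA to that seed, written as the transcript reads 5′ to 3′ (GENCODE transcripts Actl6a-201 and Smarcc1-201).
mmu-miR-9-3p: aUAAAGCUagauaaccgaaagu
Actl6a site: cacctcaacgtctgtAGCTTTAgtacactc
Smarcc1 site: gatagcaaagagcacAGCTTTAcaacaagc
The 371-base 3′ UTR of Actl6a held 1 match, which begins at its base 38. That of Actl6b (196 bases) held 0, and that of Smarcc1 (2265 bases) held 2, of which the one beginning at base 700 is shown. In all, 10.2% of 20956 mouse 3′ UTRs held the match, and 2.65% of the 2076 of about the same length as that of Actl6a. Among the 2609 of about the same length as that of Smarcc1 it was 18.9%. The other 7 members held none. A match is a string of letters and not a measured site, and mature microRNAs were not measured here.

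The promoters of the BAF53 paralogs are shown because these genes had the largest differences among the members, in opposite directions. Each is the stretch from 250 to 51 bases before the RefSeq start, on the strand of the gene (GRCm38.p6), with CpG dinucleotides in capitals. The Actl6a stretch is chr3:32708296-32708495 and the Actl6b stretch is chr5:137553296-137553495, both on the + strand and overlapping no annotated exon. In GENCODE vM21 (GRCm38) the genes span chr3:32706298-32726973 for Actl6a, within which its stretch lies, and chr5:137553517-137569582 for Actl6b.
Actl6a: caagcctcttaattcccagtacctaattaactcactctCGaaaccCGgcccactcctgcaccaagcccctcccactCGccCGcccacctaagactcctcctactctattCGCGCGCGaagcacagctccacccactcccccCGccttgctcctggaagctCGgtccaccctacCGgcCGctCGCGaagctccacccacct
Actl6b: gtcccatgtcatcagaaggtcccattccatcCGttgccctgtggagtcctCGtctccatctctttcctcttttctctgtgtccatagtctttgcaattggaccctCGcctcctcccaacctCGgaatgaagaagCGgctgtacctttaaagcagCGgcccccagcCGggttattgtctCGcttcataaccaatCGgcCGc
The Actl6a stretch held 14 CpG and 62.5% G or C, and the Actl6b stretch held 10 CpG and 54.5%. The median of 32851 promoters of the same length was 4 CpG and 51.5%. The motif CANNTG (the E-box, read the same on both strands) occurred 0 times in the Actl6a stretch and 1 time in the Actl6b stretch, and 59.05% of all promoters held at least 1. The match describes the letters only.

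Classes of cells were named from their marker transcripts and are written with "-like" for that reason. There were 13 radial glia-like cells, 13 intermediate progenitor-like cells, 22 newborn neuron-like cells, 93 excitatory neuron-like cells and 25 interneuron-like cells. The remaining cells fell into 4 clusters without a name. Radial glia are the neural stem cells, intermediate progenitors their dividing daughters that make neurons. Pax6 exceeded the floor in all 13 radial glia-like cells and Eomes in 1, whereas all 13 intermediate progenitor-like cells had both. Of other radial glia markers, Hes5 was found in 11 radial glia-like and 13 intermediate progenitor-like cells (means 1462 and 1910 TPM). Sox2 was found in 12 and 6. Sstr2, a newborn neuron marker, was found in 3 and 10. Neurod6, a transcription factor of excitatory neurons, was above the floor in all 13 radial glia-like cells and reached at least 100 TPM (a level per transcript length, scaled to a sum of 1000000 in each cell) in 9 of them. The excitatory neuron markers summed to 32.9 to 4705 TPM in radial glia-like cells (median 635, all 11 markers above the floor in at least 1 cell), against 601 to 7432 TPM in excitatory neuron-like cells (median 2238). In intermediate progenitor-like cells these markers summed to 226 to 4396 TPM (median 1397). Neurod6 was above the floor in all 13 of those cells (median 1197 TPM). Free RNA, or a captured pair of cells, was not tested in either progenitor class. The median number of genes above the floor was 4792 in radial glia-like cells, 4338 in intermediate progenitor-like cells, 3792 in newborn neuron-like cells, 4061 in excitatory neuron-like cells and 3325 in interneuron-like cells. Read numbers are not in the files used, so the depth is unknown, and the number of genes above the floor stands in for it.

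All 10 members were above the floor in at least 10 cells and so were tested. Actl6b was the most abundant, with a mean of 214.6 TPM over the 221 cells and 79.2% of cells above the floor. Dpf2 (93.3 TPM, 69.2%), Actl6a (91.8 TPM, 51.6%), Smarcc2 (73.8 TPM, 85.5%), Dpf1 (64.5 TPM, 58.8%), Smarcc1 (62.65 TPM, 73.3%) and Ss18l1 (60.1 TPM, 49.3%) followed. Ss18 (27.9 TPM, 29.4%), Phf10 (16 TPM, 11.8%) and Dpf3 (5.19 TPM, 7.24%) were the scarcest. These levels are per transcript length. The floor was 1.33 to 3.0 TPM, and how it was set is not given in the sources used here, so a value at it is read only as not detected.

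**Figure D1:**
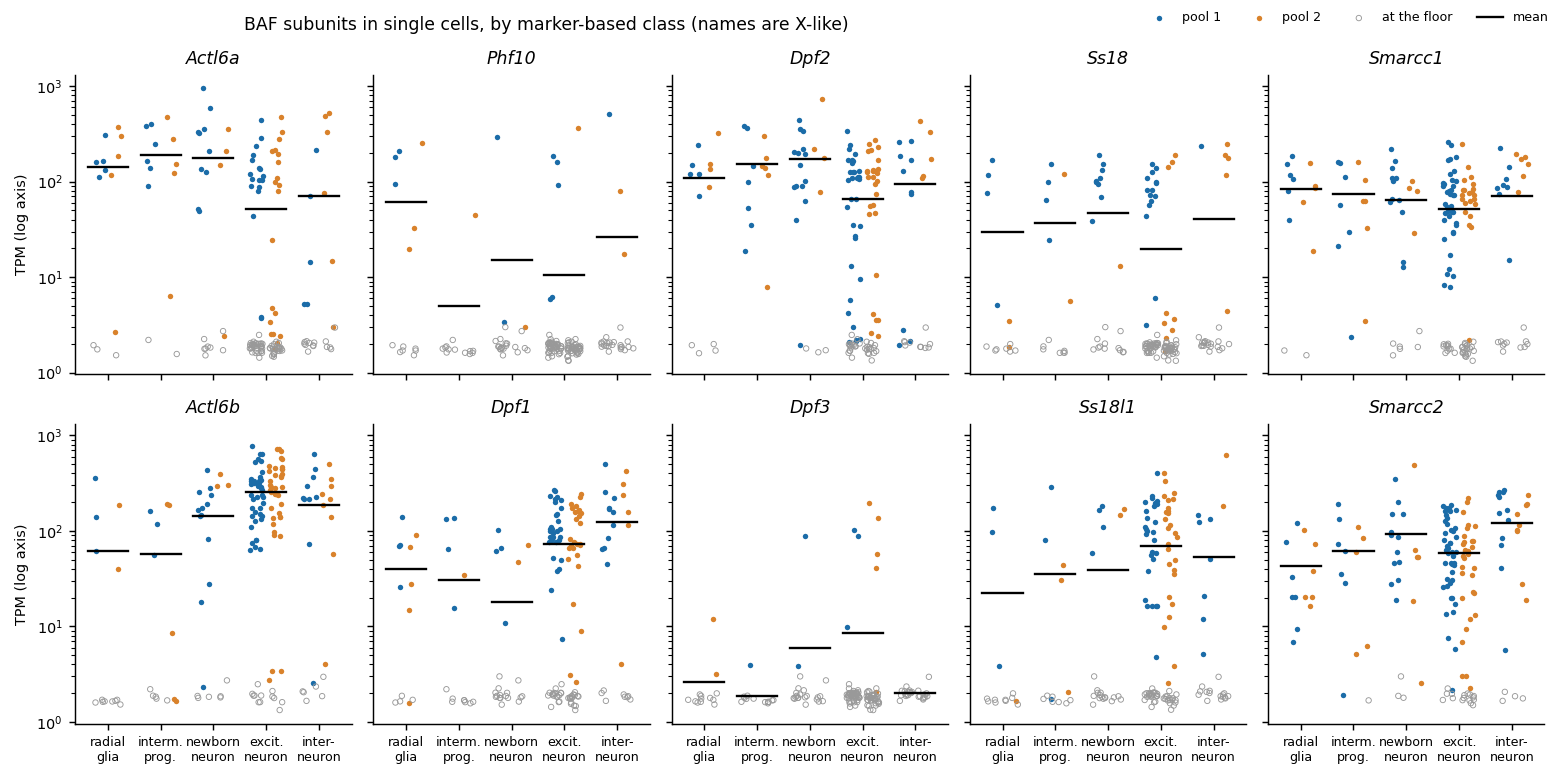
TPM of each member (log axis) in every cell of the 5 named classes, from radial glia-like at the left to interneuron-like at the right, with filled points for cells above the floor, open points for cells at it, colours for the 2 pools and a bar for the mean TPM. Actl6b lies above its floor in 5 of the 13 radial glia-like cells and in 81 of 93 excitatory neuron-like cells, and Dpf3 lies at the floor in nearly every cell.

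Among the progenitor subunits, Actl6a was found in most progenitors and in fewer than 1 of every 2 excitatory neuron-like cells. In the 7 radial glia-like cells of pool 1 it measured 311, 166, 160, 134 and 110.8 TPM, with 2 cells at the floor. The 6 radial glia-like cells of pool 2 had 376, 300, 186, 117.5 and 2.64 TPM, with 1 at the floor. Above the floor were 10 of 13 radial glia-like cells (76.9%, with an exact 95% interval of 46.2 to 94.96%) and 11 of 13 intermediate progenitor-like cells (84.6%, 54.6 to 98.1%). The counts were 14 of 22 newborn neuron-like cells (63.6%), 38 of 93 excitatory neuron-like cells (40.9%, 30.8 to 51.5%) and 11 of 25 interneuron-like cells (44%). These intervals cover counting error only.

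On the TPM scale the mean of Actl6a was 126.5 and 164 TPM in the radial glia-like cells of the 2 pools, 204 and 173 TPM in the intermediate progenitor-like cells and 197 and 120 TPM in the newborn neuron-like cells, against 50.4 and 54.4 TPM in the excitatory neuron-like cells. The pool means of these 3 classes lie above those of the excitatory neuron-like cells. Those of newborn neuron-like cells overlap both others, and those of intermediate progenitor-like cells lie above the radial glia-like ones. On the log2(TPM + 1) scale the difference was 2.48 ± 0.69 (SE, n = 2 pools) for radial glia-like minus excitatory neuron-like cells, with 2.38 in pool 1 and 2.57 in pool 2. Its adjusted p over the 10697 genes tested was 0.0901 (limma), so it did not pass. It was 3.13 ± 0.69 for intermediate progenitor-like minus excitatory neuron-like cells (adjusted p = 0.0709) and 1.84 ± 0.69 for newborn neuron-like minus excitatory neuron-like cells (adjusted p = 0.790), which did not pass either. In cells with 3000 to 5500 genes above the floor, the radial glia-like difference was 1.24 (adjusted p = 0.559, limma). That range kept 3 of the 6 radial glia-like cells of pool 2 and left out those with 376, 300 and 186 TPM. Over the 17 alternatives the adjusted p ran from 0.00846 to 0.559, and Actl6a was called under 3 of them. The exons of Actl6a overlap those of Mrpl47 on the other strand, and whether counting used the strand is not given in the sources used here.

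Phf10 passed the test in radial glia-like cells against each later class of the excitatory lineage. Its levels in radial glia-like cells were 211, 182 and 94.3 TPM in pool 1 with 4 cells at the floor, and 251, 32.6 and 19.5 TPM in pool 2 with 3 at the floor. The count above the floor was 6 of 13 radial glia-like cells (46.2%, with an exact 95% interval of 19.2 to 74.9%), 1 of 13 intermediate progenitor-like cells, 3 of 22 newborn neuron-like cells (1 of 22 above 10 TPM) and 6 of 93 excitatory neuron-like cells (6.45%, 2.40 to 13.5%). It rose in radial glia-like relative to excitatory neuron-like cells by a log2 difference of 2.01 ± 0.44 (adjusted p = 0.0267, limma, n = 2 pools), with 2.05 in pool 1 and 1.97 in pool 2. It was also higher than in intermediate progenitor-like cells, by 2.0 ± 0.44 (adjusted p = 0.0499, and 0.0629 with the pool as a replicate block, which ends the call), and than in newborn neuron-like cells, by 1.97 ± 0.44 (adjusted p = 0.0385).

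These calls rest on 6 radial glia-like cells. Of them, 5 were among the 9 radial glia-like cells with at least 100 TPM of Neurod6, and 1 was among the 4 cells below that level. Without the 9 cells the difference from excitatory neuron-like cells was 1.20 (adjusted p = 0.347, limma), with 1 of the 4 cells left above the floor. In the unnamed cluster 7, Phf10 was above the floor in 1 of 10 cells. The leading genes of that cluster include Olig1, Hes5 and Vim, and its closest class by markers was oligodendrocyte precursor. The call against excitatory neuron-like cells was lost under 7 of 17 alternatives, with adjusted p from 0.00574 to 0.556. The call against intermediate progenitor-like cells was lost under 13 of 16, and that against newborn neuron-like cells under 9 of 17. Exons of Phf10 overlap those of 1600012H06Rik on the other strand.

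Dpf2, the other progenitor BAF45 gene, was found most often in intermediate progenitor-like and newborn neuron-like cells. Its transcripts exceeded the floor in 9 of the 13 radial glia-like cells, 13 of 13 intermediate progenitor-like cells, 19 of 22 newborn neuron-like cells and 62 of 93 excitatory neuron-like cells. Intermediate progenitor-like cells ranged from 7.86 to 383 TPM with a median of 138 TPM, and excitatory neuron-like cells from the floor to 342 TPM with a median of 25.98 TPM. The log2 difference from excitatory neuron-like cells was 1.09 ± 0.63 in radial glia-like cells (adjusted p = 0.498), 2.32 ± 0.63 (adjusted p = 0.144) in intermediate progenitor-like cells and 1.77 ± 0.63 (adjusted p = 0.724) in newborn neuron-like cells. None passed, and the radial glia-like minus intermediate progenitor-like difference of -1.23 ± 0.63 did not pass (adjusted p = 0.436). Exons of Dpf2 overlap those of Gm42067 on the other strand.

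Ss18, the partner of the BAF core that CREST replaces, was above the floor in fewer than 1 of every 2 cells of each named class. It exceeded the floor in 6 of the 13 radial glia-like cells, 6 of 13 intermediate progenitor-like cells, 10 of 22 newborn neuron-like cells and 24 of 93 excitatory neuron-like cells (25.8%, 17.3 to 35.9%). The newborn neuron-like count was 9 of 16 cells in pool 1 (56.25%) and 1 of 6 in pool 2 (16.7%). Above 10 TPM the radial glia-like count was 3 of 13. In the unnamed cluster 7, described further on, 6 of 10 cells exceeded the floor. The log2 difference of radial glia-like minus excitatory neuron-like cells was 0.38 ± 0.93 (adjusted p = 0.926). The pools differed in sign, with 1.10 in pool 1 and -0.35 in pool 2.

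Of the neuronal subunits, Actl6b fell in radial glia-like relative to excitatory neuron-like cells. The radial glia-like cells of pool 1 had 354, 140 and 61.6 TPM and 4 cells at the floor, and those of pool 2 had 186 and 39.5 TPM and 4 at the floor. Excitatory neuron-like cells ranged from the floor to 776 TPM with a median of 239.9 TPM. The share above the floor was 5 of 13 in radial glia-like cells (38.5%, exact 95% interval 13.9 to 68.4%), 8 of 13 in intermediate progenitor-like cells (61.5%), 16 of 22 in newborn neuron-like cells (72.7%), 81 of 93 in excitatory neuron-like cells (87.1%, 78.6 to 93.2%) and 19 of 25 in interneuron-like cells (76%). Above 10 TPM it was 5 of 13 in both radial glia-like and intermediate progenitor-like cells (38.5% each), so the step between these classes is seen only with the lower threshold, through 3 cells at 1.65, 1.74 and 8.62 TPM. The plot of shares above the floor sets these shares beside those of Actl6a.

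**Figure D2:**
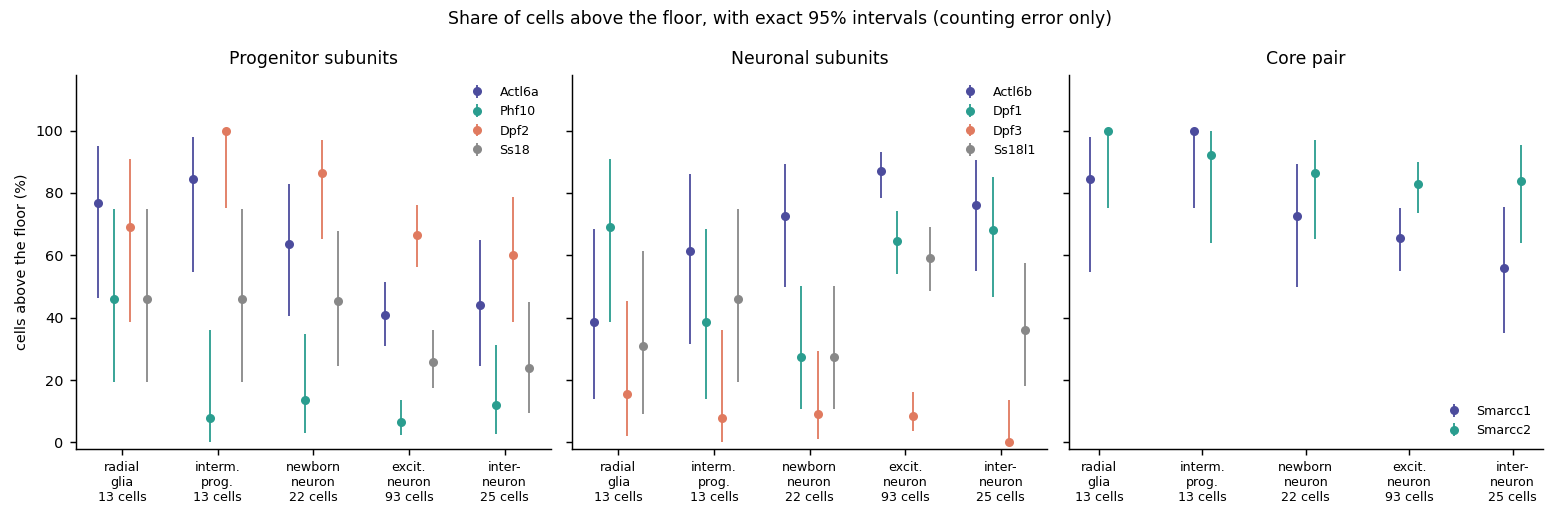
Share of cells above the floor (%) for the progenitor subunits, the neuronal subunits and the core pair in the 5 named classes, with points for the share and bars for its exact 95% interval. Actl6a lies at 76.9% in radial glia-like cells and 40.9% in excitatory neuron-like cells, and Actl6b at 38.5% and 87.1% in the same classes.

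The mean level of Actl6b was 80.3 and 38.7 TPM in the radial glia-like cells of the 2 pools, 48.8 and 65.8 TPM in the intermediate progenitor-like cells and 135 and 166.5 TPM in the newborn neuron-like cells. It was 239 and 269.6 TPM in the excitatory neuron-like cells and 194 and 181 TPM in the interneuron-like cells. The pool means of radial glia-like and intermediate progenitor-like cells overlap, and each later class lies above both. The log2 difference was -3.47 ± 0.68 for radial glia-like minus excitatory neuron-like cells (adjusted p = 0.0174, limma, n = 2 pools), with -3.08 in pool 1 and -3.86 in pool 2. Neither intermediate progenitor-like minus excitatory neuron-like cells at -3.19 ± 0.68 (adjusted p = 0.0553) passed, nor newborn neuron-like minus excitatory neuron-like cells at -1.60 ± 0.68 (adjusted p = 0.880). Radial glia-like minus newborn neuron-like cells gave -1.87 ± 0.68 (adjusted p = 0.202).

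In radial glia-like cells, Actl6b was found only where Neurod6 was high, but not in all such cells. All 5 cells with Actl6b above the floor were among the 9 with at least 100 TPM of Neurod6 and 0 of the 4 other cells had it, too few to show that they lack it. In those 4 cells Dpf3 and Ss18l1 were also at the floor, while Actl6a was above it in 3. Dpf1 was above it in 1, at 1.59 TPM against a floor of 1.52 TPM in that cell. The median number of genes above the floor was 5139 in the 9 cells and 4691.5 in the 4. The part of this number in these counts was not tested.

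Dpf1, the neuronal BAF45b gene, had its lowest share among the named classes in newborn neuron-like cells when the pools were combined. Cells above the floor numbered 9 of 13 radial glia-like cells, 5 of 13 intermediate progenitor-like cells, 6 of 22 newborn neuron-like cells (27.3%, exact 95% interval 10.7 to 50.2%), 60 of 93 excitatory neuron-like cells (64.5%, 53.9 to 74.2%) and 17 of 25 interneuron-like cells. By pool, the intermediate progenitor-like count was 4 of 7 in pool 1 (57.1%) and 1 of 6 in pool 2 (16.7%). In pool 2 the newborn neuron-like count was 2 of 6. Its log2 difference was -0.59 ± 0.90 for radial glia-like (adjusted p = 0.853), -1.58 ± 0.90 for intermediate progenitor-like (adjusted p = 0.559) and -1.86 ± 0.90 for newborn neuron-like (adjusted p = 0.921) minus excitatory neuron-like cells, none of which passed. Radial glia-like minus newborn neuron-like cells gave 1.27 ± 0.90 (adjusted p = 0.581). Of the 9 radial glia-like cells with Dpf1 above the floor, 8 had at least 100 TPM of Neurod6. The other cell had 1.59 TPM of Dpf1, near its floor of 1.52 TPM. Exons of Dpf1 overlap those of Gm44632 on the other strand.

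Ss18l1, which encodes CREST, exceeded the floor in 4 of the 13 radial glia-like cells, 6 of 13 intermediate progenitor-like cells, 6 of 22 newborn neuron-like cells and 55 of 93 excitatory neuron-like cells (59.1%, 48.5 to 69.2%). In radial glia-like cells it measured 176, 96.8 and 3.84 TPM in pool 1 and 1.67 TPM in pool 2, with the other cells at the floor. Above 10 TPM the radial glia-like count was 2 of 13, both in pool 1. The log2 difference from excitatory neuron-like cells was -1.99 ± 0.66 in radial glia-like cells (adjusted p = 0.166), with -1.03 in pool 1 and -2.94 in pool 2, and -1.36 ± 0.66 (adjusted p = 0.463) in intermediate progenitor-like cells. Newborn neuron-like cells gave -1.13 ± 0.66 (adjusted p = 0.9997). None of these passed. All 4 radial glia-like cells with Ss18l1 above the floor were among the 9 with at least 100 TPM of Neurod6.

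Dpf3, the alternative neuronal BAF45c gene, was above the floor in 16 of 221 cells, 8 of them excitatory neuron-like. The 2 radial glia-like cells that had it measured 11.9 and 3.18 TPM, both in pool 2. No interneuron-like cell of 25 had it, which at a count of 3 allows a share of up to 12%. Its log2 difference of radial glia-like minus excitatory neuron-like cells was -0.16 ± 0.21 (adjusted p = 0.823), on a scale where most cells sit at the floor.

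The core subunits Smarcc1 (BAF155) and Smarcc2 (BAF170), which form the scaffold of the complex as dimers, were found in most cells of each named class. Smarcc1 exceeded the floor in 11 of the 13 radial glia-like cells, 13 of 13 intermediate progenitor-like cells, 16 of 22 newborn neuron-like cells and 61 of 93 excitatory neuron-like cells. Smarcc2 was above it in 13, 12, 19 and 77 cells of the same classes. Of the 25 interneuron-like cells, 14 had Smarcc1 above the floor (56%) and 21 had Smarcc2 (84%). The log2 difference of radial glia-like minus excitatory neuron-like cells was 1.3 ± 0.71 for Smarcc1 (adjusted p = 0.468) and 0.14 ± 0.66 for Smarcc2 (adjusted p = 0.960), whose interval of -1.25 to 1.54 holds changes in both directions. The sign for Smarcc2 turned under 6 alternatives, among them quantile normalization (-0.46). The pools differed for Smarcc1 in excitatory neuron-like cells, with 39 of 50 cells above the floor in pool 1 (78%) and 22 of 43 in pool 2 (51.2%). Exons of Smarcc1 overlap those of Dhx30 on the other strand.

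**Figure D3:**
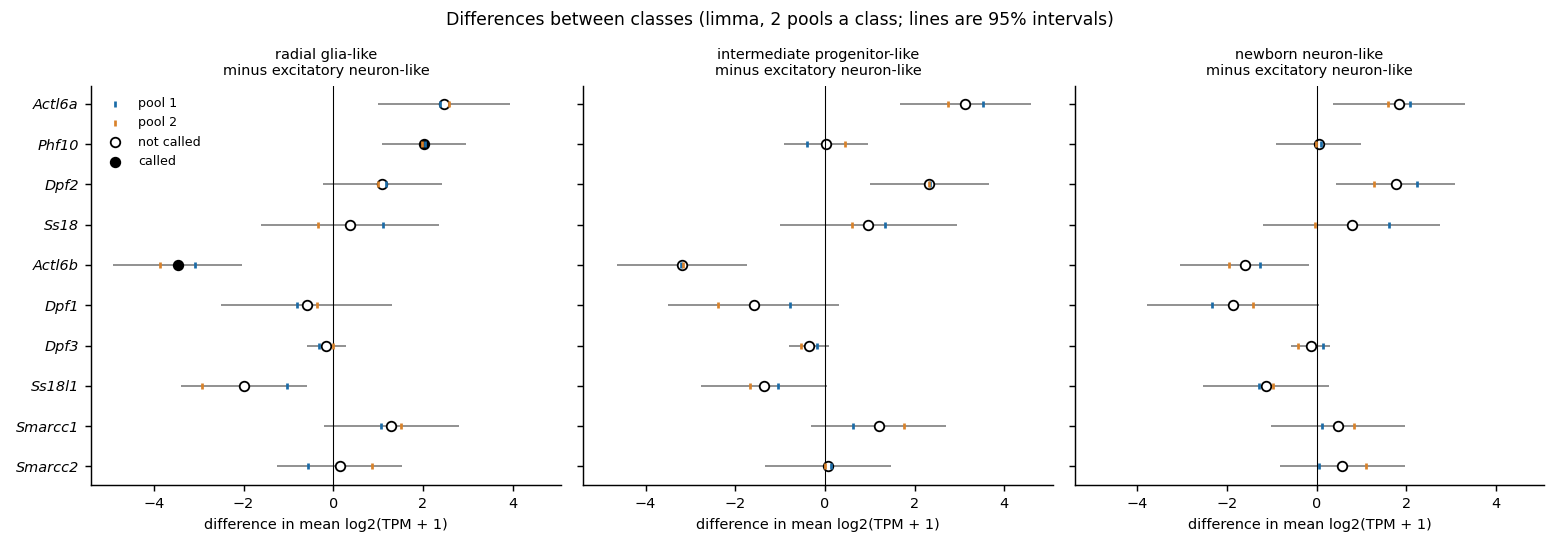
Difference in mean log2(TPM + 1) of each member (rows) in radial glia-like, intermediate progenitor-like and newborn neuron-like cells minus excitatory neuron-like cells, with lines for 95% intervals, ticks for the 2 pools and filled points for calls. Only Phf10 (2.01) and Actl6b (-3.47) are filled, both in the radial glia-like panel, and Actl6a lies at 2.48, 3.13 and 1.84.

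Counted together, 2 of the 10 members passed in radial glia-like minus excitatory neuron-like cells (Phf10 higher, Actl6b lower), where 1.83% of all 10697 genes passed the call rule. That rule asked for a log2 difference of 1 or more in size together with an adjusted p under 0.05. All 4 progenitor members lay above 0 (median 1.55) and all 4 neuronal members below it (median -1.29), beside a median of 0.12 over all genes. In intermediate progenitor-like minus excitatory neuron-like cells 0 of 10 passed, 3 had an unadjusted p below 0.05, and 0.402% of all genes were called. Here too the progenitor members were all above 0 (median 1.65) and the neuronal members all below it (median -1.47), beside 0.04 over all genes. Phf10 was above 0 only by 0.018 ± 0.44, with -0.41 in pool 1 and 0.45 in pool 2, so its sign is not settled. Smarcc1 was at 1.20 ± 0.71, and the 4 members with a difference under 1 in size lay between -0.36 and 0.97.

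In newborn neuron-like minus excitatory neuron-like cells 0 of 10 members passed, 3 had an unadjusted p below 0.05, and 0.0467% of all genes were called (limma). The medians were 1.28 for the progenitor members and -1.37 for the neuronal members, and the 5 members with a difference under 1 in size lay between -0.13 and 0.79. These 3 comparisons share the excitatory neuron-like cells.

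Phf10 was the member called in both comparisons that follow. In radial glia-like minus intermediate progenitor-like cells 1 of 10 members passed, against 0.72% of all genes, and the 8 members with a difference under 1 in size lay between -0.66 and 0.99. In radial glia-like minus newborn neuron-like cells 1 of 10 passed, against 1.22% of all genes, and the 7 such members lay between -0.86 and 0.81.

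Interneurons make GABA and come from outside the cortex. In interneuron-like minus excitatory neuron-like cells 0 of 10 members passed, 0 had an unadjusted p below 0.05, and 0.337% of all genes were called (limma). The log2 differences reached -1.0 ± 0.68 for Actl6b (interval -2.45 to 0.44), -1.13 ± 0.66 for Ss18l1 and 1.05 ± 0.66 for Smarcc2, and the other 7 lay between -0.27 and 0.53. A miss of the threshold with 2 pools does not show that the classes have equal levels.

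Cluster 7 held 10 cells that could not be named, led by Olig1, Mfge8, Id3 and Hes5, with genes of glia and of radial glia among them. The closest class by markers was oligodendrocyte precursor. Olig1 was above the floor in 10 of 10 cells (mean 731 TPM) and Pax6 in 5 (mean 4.54 TPM, against 76.7 TPM in radial glia-like cells). Cluster 7 was compared after its cells had been seen. Actl6a exceeded the floor in 9 of its 10 cells and rose by 3.0 ± 0.69 relative to excitatory neuron-like cells (adjusted p = 0.0314, limma), with 2.99 in pool 1 and 3.0 in pool 2. Actl6b was above the floor in 7 of 10 cells (median of these 7 cells 43.55 TPM, highest 314 TPM) and above 10 TPM in 4, and fell by 3.12 ± 0.68 (adjusted p = 0.0223), with -2.33 in pool 1 and -3.91 in pool 2. These were 2 of 10 members, against 2.86% of all genes called. Both calls were lost when only cells with the letter A in their names were used (adjusted p = 0.0875 for Actl6a and 0.133 for Actl6b), and when the fit left out the 9 radial glia-like cells with at least 100 TPM of Neurod6 (0.222 and 0.0828). Neurod6 had a mean of 341 TPM in cluster 7, against 1674 TPM in excitatory neuron-like cells. Of the other members, Ss18 was at 1.91 ± 0.93, Dpf1 at -1.92 ± 0.90, Ss18l1 at -1.57 ± 0.66 and Smarcc2 at -1.27 ± 0.66, none of which passed, and 4 lay between -0.43 and 0.38.

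Actl6a and Actl6b were found together in some of the captured cells of each class. Both exceeded the floor in 3 of the 13 radial glia-like cells, 7 of 13 intermediate progenitor-like cells, 10 of 22 newborn neuron-like cells and 34 of 93 excitatory neuron-like cells. Actl6a alone was found in 7, 4, 4 and 4 cells of these classes, and Actl6b alone in 2, 1, 6 and 47. By level, Actl6a was the higher of the pair in 9 of 13 radial glia-like and 9 of 13 intermediate progenitor-like cells, in 9 of 22 newborn neuron-like cells and in 8 of 93 excitatory neuron-like cells. Actl6b was the higher in 77 of the 93 excitatory neuron-like cells. These counts describe few cells and carry no test. Above 10 TPM the share with both was 15.4% in radial glia-like cells, against 23.1% above the floor. In excitatory neuron-like cells it was 25.8%, against 36.6%. All radial glia-like cells with Actl6b above the floor had at least 100 TPM of Neurod6. Doublets were not removed, and their part in these counts was not tested.

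**Figure D4:**
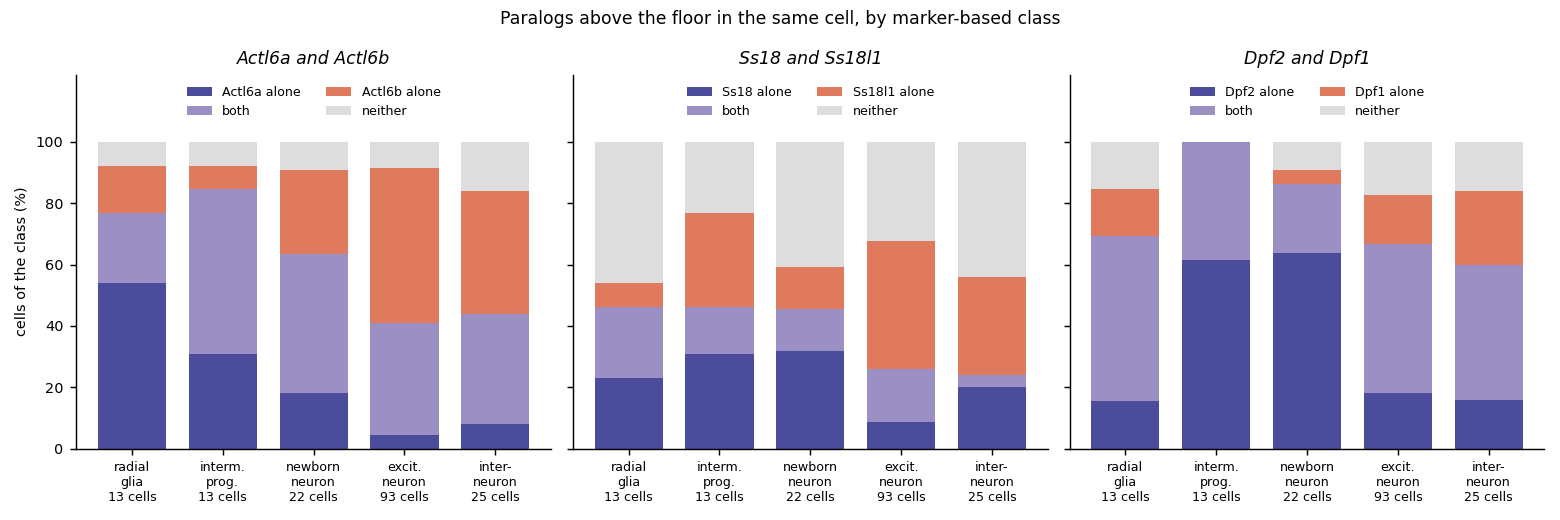
Share of the cells of each class (%, stacked to 100) in which the progenitor paralog alone, both, the neuronal paralog alone or neither was above the floor, for 3 pairs. Actl6b alone takes 2 of 13 radial glia-like cells and 47 of 93 excitatory neuron-like cells, whereas Dpf2 and Dpf1 share 45 of 93 excitatory neuron-like cells.

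Of the pair Ss18 and Ss18l1, Ss18l1 alone was found in 1 of 13 radial glia-like cells and 39 of 93 excitatory neuron-like cells, Ss18 alone in 3 of 13 and 8 of 93, and neither in 6 of 13 and 30 of 93. Dpf2 and Dpf1 were both found in 7 of 13 radial glia-like cells and 45 of 93 excitatory neuron-like cells. Dpf2 alone was found in 14 of 22 newborn neuron-like cells and Dpf1 alone in 1. Smarcc1 and Smarcc2 both exceeded the floor in 11 of the 13 radial glia-like cells and 51 of 93 excitatory neuron-like cells. Phf10 shared 5 radial glia-like cells with Dpf1.

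As a tally per cell, 2.38 of the 4 progenitor subunits were above the floor on average in radial glia-like cells, 2.38 in intermediate progenitor-like cells, 2.09 in newborn neuron-like cells and 1.40 in excitatory neuron-like cells. The neuronal tally was 1.54, 1.54, 1.36 and 2.19 in the same order. The summed level of the 4 neuronal subunits had a median of 43.1 TPM in radial glia-like cells and 384 TPM in excitatory neuron-like cells, and that of the progenitor subunits 326 TPM and 116.2 TPM. Newborn neuron-like cells held 371 TPM of progenitor and 178 TPM of neuronal subunits by the same medians. These were 374.6 and 165.2 TPM in the 16 cells of pool 1. In the 6 cells of pool 2 they were nearly equal, at 270.6 and 261 TPM.

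The number of genes above the floor moved with the detection of some members. Among excitatory neuron-like cells, Dpf1 was above the floor in 82.6% of the 46 cells with more genes, against 46.8% of the 47 with fewer. Smarcc1 gave 82.6% and 48.9% in these cells, and Dpf2 80.4% and 53.2%. Actl6a gave 41.3% and 40.4%, and Actl6b 93.5% and 80.9%. The part of this number in the differences between classes was not tested beyond the range of 3000 to 5500 genes. There Actl6b was at -3.38 (adjusted p = 0.0144, limma) and Phf10 at 2.0 (adjusted p = 0.0337). Actl6a was at 1.24 (adjusted p = 0.559), against 2.48 over cells of all gene numbers. That range held 3 of the 6 radial glia-like cells of pool 2. The cells it left out had the highest Actl6a levels of these 6, at 376, 300 and 186 TPM.

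Over the 221 cells, the highest Pearson r of log2(TPM + 1) with Actl6b among 9059 genes was 0.50 for Cd24a, a surface protein of immature neurons, then 0.46 for Tubb3 (neuronal tubulin), 0.44 for Mllt11, 0.43 for Stmn2 (a tubulin-binding protein of growing axons) and 0.43 for D0H4S114. Within the 93 excitatory neuron-like cells these r were 0.04 to 0.23. The genes most like Actl6a were X1190002F15Rik (0.37), H1f0 (0.35), Tead2 (0.34), Gtf2b (0.34) and Nde1 (0.33). Within the excitatory neuron-like cells these r ran from -0.06 for X1190002F15Rik to 0.31 for Gtf2b. Among the members, Ss18l1 had an r of 0.25 and Dpf1 of 0.21 with Actl6b, Dpf2 of 0.23 with Actl6a, and Actl6a with Actl6b -0.18. The number of genes above the floor had an r of 0.28 with Actl6a and 0.06 with Actl6b. These r describe cells of mixed classes from 2 pools, which share the scaling of each cell.

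The other genes around the exchange were described as lists. Of 22 other BAF family subunits 19 were tested, of 8 regulators of the exchange 5, and of 14 NuRD subunits (another remodelling complex) 14. In radial glia-like minus excitatory neuron-like cells, 0 of these genes were called (limma), with 2, 2 and 1 at an unadjusted p below 0.05. The medians were -0.02, 0.24 and 0.13, beside 0.12 over all genes. The 2 regulators at an unadjusted p below 0.05 are named after their values were seen. They were Ptbp1 (2.2 ± 0.69, adjusted p = 0.136, limma), a splicing repressor of non-neuronal cells, and Rest (0.87 ± 0.30, adjusted p = 0.183), a repressor of neuronal genes. The 2 other BAF family subunits and the 1 NuRD subunit at that level are not named. Differences ran from -2.29 to 1.45 in the BAF family list and from -0.54 to 2.10 in the NuRD list. In each of the other 5 comparisons between named classes 0 were called too, with 0 to 3 of a list at an unadjusted p below 0.05. In cluster 7, 3 were called lower than in excitatory neuron-like cells, where 0.841% of all genes were called lower. They are again named after their values were seen. They were Smarca2 (-4.32 ± 0.90, adjusted p = 0.0182), the BRM ATPase, Bcl11a (-3.60 ± 0.93, adjusted p = 0.0481), a BAF subunit of neurons, and Hdac2 (-1.60 ± 0.34, adjusted p = 0.0205) of NuRD. The pools differed for Bcl11a, with -1.51 in pool 1 and -5.69 in pool 2.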

How the data were processed

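Single-cell TPM values of 221 cells were used as deposited. Per the submitters' processing notes the authors used TopHat2 2.0.14, Bowtie2 2.2.6, Cufflinks 2.2.1 and mm10. TPM in the deposited table sums to 1000000 in each cell, holds no 0, and has a floor of 1.33 to 3.0 in each cell; how the floor was set is not given in the sources used here. Each cell had 2146 to 6727 genes above its floor, and the depth in reads is unknown. No 2 cells correlated above r = 0.644.

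The 10 members, the marker lists and the other gene lists were chosen with earlier results of these data known. Of 87 listed markers, the 52 that exceeded the floor in 5 cells or more were standardized as log2(TPM + 1), and cells were grouped by Ward linkage on 10 principal components into 10 clusters. A cluster took a class name where at least 3 of that class's markers were above the floor in 50% of its cells and its 10 leading genes held no more markers of another class. This rule was written after the files had been seen. Doublets were not removed. Clusters 3 and 5 each lay in 1 pool only.

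Cells of a pool are not replicates, so means of log2(TPM + 1) per class and pool were fitted with limma 3.58.1 (R 4.3.3; lmFit, eBayes with trend and robust), two-sided tests, over the 10697 genes that exceeded the floor in 10 or more cells, with markers and 92 spike-ins left out. The 14 profiles (5 classes and the unnamed clusters 6 and 7, each with at least 4 cells in each pool; 2 or 3 in some alternatives) share the spread, with 7 residual degrees of freedom. Errors are standard errors of that fit, n = 2 pools. P-values are Benjamini-Hochberg adjusted, and a call needed an adjusted p under 0.05 together with a log2 difference of 1 or more in size. A pseudocount of 1 understates changes of low genes. The fit was tested on simulated data. In the text all 10 members are named, with values in radial glia-like minus excitatory neuron-like cells. Elsewhere those whose log2 difference reached 1 in size are named, with Phf10 added in intermediate progenitor-like minus excitatory neuron-like cells. Genes of other lists were to be named where called in the first comparison, where 0 were. Ptbp1 and Rest, which were not called, and the 3 called in cluster 7 are named after their values were seen. The 5 genes with the highest Pearson r with Actl6b and with Actl6a are also named.

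The pool numbers pair the classes, since cells of 1 pool share their animals. Between classes, deviations from the class mean correlated by at most 0.0559. Alternatives covered the pseudocount, scale, filter, normalization, replicate block, weights, clustering, depth and each pool left out. The cells of a letter A or B in cell names, which the labels do not explain, and cluster 7 joined to the radial glia-like cells were alternatives chosen after seeing the data.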

Additional observations from a re-analysis of the deposited data

How the results depend on the processing

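The 10 members were refitted under up to 17 alternatives, 2 of them (cells with the letter A only, and cluster 7 joined to the radial glia-like cells) chosen after seeing the data. Members outside radial glia-like minus excitatory neuron-like cells are given singly where the log2 difference was at least 1 in size, a choice made after the values were seen; of the 546 values of the other 35 results, 60 had the other sign and 0 were called. The cause of each change below was not tested.

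In radial glia-like minus excitatory neuron-like cells the 2 members called became 0 with log2 of the mean TPM or letter A cells, and 1 with quantile normalization or classes by highest marker score; all genes called ran from 19 to 776, against 196. Actl6b was lost with log2 of the mean TPM (-2.17, adjusted p = 0.123, limma) and letter A cells (-4.09, 0.106). Phf10 was lost under 7 of 17 alternatives. Actl6a was called under 3 (lowest adjusted p = 0.00846) and Ss18l1 under 1 (0.0151), so an unchanged count can hold other members. Ss18 turned to -0.58 with log2 of the mean TPM and Dpf3 to 0.046 with letter A cells. Smarcc2 turned to -0.088 with log2(TPM + 10), -0.38 with log2 of the mean TPM, -0.46 with quantile normalization, -1.20 in clusters from variable genes, -0.16 in letter A cells and -0.48 with cluster 7 joined. In intermediate progenitor-like minus excitatory neuron-like cells the 0 called became 1 with log2(TPM + 10), the stricter filter, quantile normalization or pool and letter as units, and 2 with weights or cluster 7 joined; classes by highest marker score turned Dpf1 to 0.19 and Ss18l1 to 0.55. The 1 called in radial glia-like minus intermediate progenitor-like cells became 0 under 13 of 16 alternatives. The 1 called in radial glia-like minus newborn neuron-like cells became 0 with log2 of the mean TPM, no filter, quantile normalization, weights, highest marker score, letter A cells or cluster 7 joined, and Dpf1 turned to -1.39 once the 9 Neurod6-high radial glia-like cells (at least 100 TPM), which hold 8 of the 9 with Dpf1, were left out. In radial glia-like minus newborn neuron-like cells Phf10 was lost under 9 of 17 alternatives. Actl6b was called there under 2 (lowest adjusted p = 0.0077, limma). In cluster 7 the 2 called became 1 with log2 of the mean TPM, and 0 without the Neurod6-high radial glia-like cells or with letter A cells.

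With the pool as a replicate block the members called were 2, 0, 0, 0, 1 and 0 in the 6 comparisons between named classes, in the order of the report, with 185, 21, 1, 35, 124 and 33 of all genes; the pairing ended the call of Phf10 in radial glia-like minus intermediate progenitor-like cells (p = 0.0629 after adjustment) and no other.

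Above 10 TPM, shares in excitatory neuron-like cells were 30.1% for Actl6a, 52.7% for Dpf2, 17.2% for Ss18, 25.8% for both Actl6a and Actl6b and 35.5% for both Dpf2 and Dpf1. Other shares that moved by over 1.5 times there, Dpf3 aside, were Actl6b in intermediate progenitor-like cells (38.5%) and cluster 7 (40%), Ss18 (23.1%) and Ss18l1 (15.4%) in radial glia-like cells and Phf10 in newborn neuron-like cells (4.55%). Smarcc1 was at 77.7% in clusters from variable genes, and Dpf3 at 0% of radial glia-like cells with 3000 to 5500 genes. Leaving out 1 pool in turn gives values with no test: Dpf3 was above the floor in 0 to 33.3% of radial glia-like cells, and in excitatory neuron-like cells Phf10 in 2.33 to 10%, Smarcc1 in 51.2 to 78% and Smarcc2 in 74.4 to 90% of cells. Pool 2 alone gave 16.7% for Ss18 in newborn neuron-like, Dpf1 in intermediate progenitor-like and Ss18l1 in radial glia-like cells. Some alternatives give no class of a kind (intermediate progenitors in clusters from variable genes, interneurons in letter A cells, cluster 7 in 6 alternatives).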
